A study of Mus musculus with 8 samples.

Results

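Stem and early progenitor cells of a double-mutant mouse with myelodysplastic syndrome (MDS) were set against the same kind of cells of double-mutant mice before disease, with 1 array for each, so 2 of the 8 arrays of the study. The cells were LSK cells of C57BL/6 mice, the bone marrow fraction without lineage markers but with c-Kit and Sca-1, which holds stem cells and multipotent progenitors. Donor CD45.2 stem cells that carried Cre-ERT and either wild-type or floxed Ezh2 had been given a retrovirus with RUNX1S291fs, a truncating mutant of the transcription factor RUNX1, or an empty one. They were transplanted with wild-type CD45.1 marrow into lethally irradiated mice, and Ezh2 was deleted afterwards.

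Both arrays compared here held CD45.2 cells with RUNX1S291fs and deleted Ezh2. The pre-disease array was made at month 4 after transplantation from cells pooled from 2 to 4 mice. The MDS array came from 1 moribund mouse, for which the sources used here give no age or time after transplantation. The other arrays serve as points of reference: WT (empty retrovirus, wild-type Ezh2), Ezh2 deleted alone and RUNX1S291fs alone, all CD45.2 cells at month 4; the MDS/ML array of a second moribund double mutant, with MDS and myeloid leukemia; and CD45.1 wild-type competitor cells taken at month 4 from RUNX1S291fs mice and from double-mutant mice. The host of these retrovirally transduced donor cells had been irradiated and also held wild-type marrow. A single diseased mouse was set against a pool, so disease, time and mouse-to-mouse differences cannot be told apart, and no difference between the arrays has a test or a replicate error.

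MDS is a clonal disease of blood stem cells in which the marrow makes blood cells badly and which can pass into acute leukemia. RUNX1 is a transcription factor that helps to set up stem cell, megakaryocyte and granulocyte programmes, and EZH2 is the enzyme of Polycomb repressive complex 2 (PRC2) that methylates histone H3 and keeps developmental and cell cycle inhibitor genes silent. Loss of function of either gene is known from human MDS.

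A level below is the log2 signal of a gene's probe after subtraction of the array's 75th percentile, so 0 is that percentile, and a difference is the MDS level minus the pre-disease level. Of 20660 genes with a probe, 14067 stood well above background on 1 or both arrays: 12620 on both, 675 on the MDS array only and 772 on the pre-disease array only. Where 1 side was dim, the difference is a lower bound, written "at least". The arrays lay on the same slide as WT, and 54.5% (MDS) and 52.1% (pre-disease) of probes were well above background, within the 43.9% to 55.3% of all 8 arrays. Repeat spots of a probe had a median SD of 0.057 on the MDS array and 0.054 on the pre-disease array, which covers spotting error only.

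With MDS, 1501 genes (10.7%) were higher by 2-fold or more than before disease and 2883 (20.5%) were lower, and 72 and 242 were at least 16-fold apart. The middle of all differences was -0.23, with quartiles at -0.84 and 0.39. The lower side was larger only under some scalings: 34.2% of the 2-fold differences were higher with MDS here, 20.8% when arrays were centred on their medians, 47.7% when the median difference was set to 0, and 52.0% when the percentile was taken over probes detected on all 8 arrays. Differences are therefore best read against the shift of all genes. Counts of list members for this pair are to be read against the 10.7% higher and 20.5% lower of all genes measured. Of 1185 further probes measured for the 2-fold genes, 1093 (92.2%) lay on the same side as the probe used.

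Other pairs of arrays give the background for these counts. The 2 wild-type CD45.1 arrays, on a slide of their own with 2 mutants, were at least 2-fold apart at 16.7% of genes, and the pre-disease array was 2-fold apart from WT at 18.6% (10.6% higher and 7.96% lower). The MDS array was 2-fold apart from the pre-disease array at 31.2% and from WT at 31.4% (13.6% higher and 17.8% lower). The scatter of gene levels shows the spread around equality and where 4 groups of genes fell in it.

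**Figure D1:**
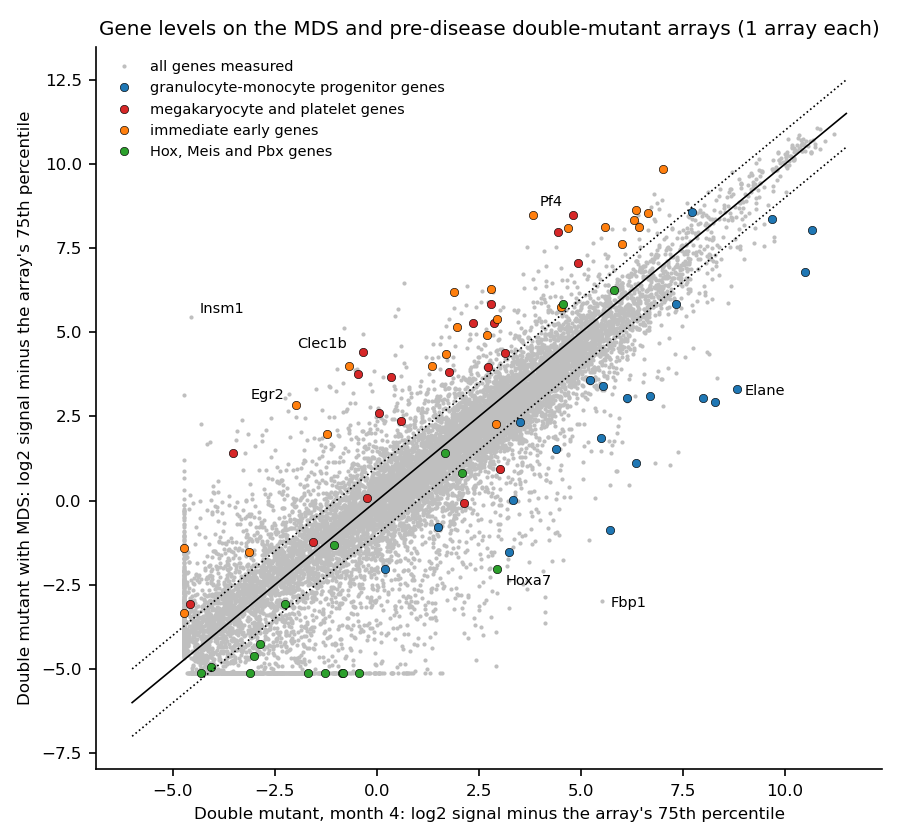
Levels of the 14067 genes measured on the pre-disease array (horizontal) against the MDS array (vertical), as log2 signal relative to the array's 75th percentile, with dim values drawn at the lowest level well above background of their array. The solid line marks equal levels and the dotted lines a 2-fold difference; granulocyte-monocyte progenitor genes (blue) lie below it in 20 of 21 cases and immediate early genes (orange) above it in 23 of 24.

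The targeted genes and the markers of the sort were read first. Ezh2 was at 3.42 before disease and 3.29 with MDS, close to the 3.46 of WT. No source used here places its probe inside or outside the deleted exons, so this gene checks nothing. Runx1 was at 3.47 before disease and 5.31 with MDS, 1.84 higher, with a second probe 1.58 higher; the MDS value was the highest of the 8 arrays. No source used here says whether these probes read the retroviral copy. Kit, the stem cell factor receptor used in the sort, was at 4.45 and 5.11. Ly6a, which encodes Sca-1, the other positive marker of the sort, was at 3.17 before disease and 0.53 with MDS, 6.24-fold lower, and the 2 moribund arrays (MDS/ML 1.18) lay below all 6 others (3.17 to 4.14). Ptprc, which encodes CD45, was at 1.08 and 0.78.

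Markers of mature cells were summed per array as a check on what the sorted fraction held. The B cell markers Cd79a, Ebf1 and Pax5 and the T cell marker Cd3g were not well above background on either array, nor were Cxcl12 of stroma, Cdh5 of endothelium and Xcr1 of dendritic cells. Other markers of these sets were: of 6 each, 2 of B cells and 4 of T and NK cells on each array. Of 6 for stroma and endothelium, 4 were before disease and 2 with MDS. Their summed level was 4.16 before disease and 4.68 with MDS, against 3.38 to 4.46 on the other 6 arrays. The summed log2 level of 6 late neutrophil markers was 10.4 before disease and 9.64 with MDS, against 4.80 on WT and 1.58 to 8.66 on the other 5 arrays. That of 6 megakaryocyte markers was 6.15 and 9.51, against 3.07 to 8.65 on the other 6 arrays, that of 6 mast cell and basophil markers 7.57 and 8.60, that of 6 erythroid markers 5.43 and 4.99, and that of 5 primary granule markers 12.0 and 8.64. The sum of the measured monocyte and macrophage markers was 6.37 and 3.25, and that of 6 dendritic cell markers 8.41 and 9.26, the highest of the 8 arrays on the MDS array. A sum follows its brightest member. Siglech, given below, made up nearly all of the dendritic cell sum, while H2-Aa, Cd74 and Itgax were 2.18, 2.04 and 1.05 lower with MDS. Cpa3, at 8.47 with MDS, made up most of the mast cell and basophil sum there. In that set Fcer1a was 1.11 higher, and Hdc, Prss34 and Ms4a2 were lower by 4.27, 4.34 and at least 2.76. Xist, the RNA of the inactive X chromosome, was well above background on both arrays compared, at 1.10 and 2.76, and the Y-linked Ddx3y, Eif2s3y, Kdm5d and Uty on neither. On the MDS/ML array Xist was not well above background and all 4 Y-linked genes were, and on the Ezh2-deleted array 3 of the 4 were and Xist was not, so the sex-linked genes set these 2 reference arrays apart from the others. The part of sex in differences from them was not tested. In such bulk samples fewer cells of a type and less RNA per cell cannot be told apart, and the part of other cell types in the results below was not tested.

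Genes of granulocyte and monocyte progenitors were lower with MDS in 20 of the 21 measured, by a median of 3.09 on the log2 scale, and none was 2-fold higher. Elane, the gene of neutrophil elastase, was at 8.81 before disease and 3.32 with MDS, 5.49 lower. Prtn3, the gene of a granule protease, was 4.94 lower, at 3.06. Ms4a3, a membrane protein gene of committed granulocyte-monocyte progenitors, was at 8.29 and 2.93. On WT these 3 genes were at 2.83, 4.20 and 2.82, so with MDS Elane and Ms4a3 were within 2-fold of WT and Prtn3 was more than 2-fold below it. Ctsg, the cathepsin G gene, was 3.69 lower, and Mpo, the myeloperoxidase gene, 2.62 lower though still bright at 8.03.

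The regulators of that lineage differed in the same direction. Gfi1, a repressor needed for neutrophil formation, was at 5.72 before disease, above the 2.19 to 4.49 of the 5 other month 4 arrays, and at -0.86 with MDS, 6.58 lower. Cebpe, a factor of granule formation, was at 6.69 and 3.12, and Cebpa, which commits progenitors to the myeloid lineage, at 1.49 and -0.78. Irf8, a factor of monocyte and dendritic cell fate, was at 5.49 and 1.87, below the 4.02 of WT. Spi1, which encodes the myeloid master factor PU.1, was 2.23 lower. Csf1r, the receptor of macrophage colony-stimulating factor, was 3.09 lower on the probe used, while its other probes ranged from -3.53 to 0.50.

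Set against WT on the same slide, this list had a median of 2.16 before disease and -0.38 with MDS, and 17 of 21 genes were 2-fold above WT before disease (10.6% of all genes) against 3 with MDS (13.6%). With MDS 7 of the 21 were 2-fold below WT (17.8% of all genes), and 1 was before disease. The mean level of the list was 6.11 before disease, the highest of the 8 arrays, and 2.94 with MDS, below every array but MDS/ML (2.16); the remaining 5 month 4 arrays lay between 3.20 and 5.55. The background of this list is wide: between both wild-type CD45.1 arrays 14 of 21 of its genes were 2-fold lower (9.39% of all genes), with a median of -1.32.

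Late neutrophil genes showed another pattern. S100a8, a calcium-binding protein gene of mature neutrophils, was at 9.23 before disease and 7.66 with MDS, Lcn2, the lipocalin gene, at 6.55 and 4.21, and Chil3, a chitinase-like protein gene, at 6.63 and 5.06. Their WT levels were 2.54, -0.33 and -0.17. Of 21 genes measured 7 were 2-fold lower and 0 higher with MDS, a median of -0.60, and the list lay far above WT on both arrays, by a median of 5.09 before disease and 4.56 with MDS. Stfa2, a stefin gene of neutrophils, was 1.20 lower but has close paralogs whose transcripts this probe may share. On the MDS/ML array late neutrophil genes were 5.33 below the pre-disease array, S100a8 being at -0.47. Between both CD45.1 arrays 14 of 17 of these genes were 2-fold lower (9.39% of all genes).

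Most of the monocyte and macrophage genes and of the dendritic cell and MHC class II genes listed were at least 2-fold lower. Among 19 monocyte and macrophage genes 10 were lower and 2 higher. Cx3cr1, the fractalkine receptor of monocytes, was at 1.63 and -2.55, Ccr2, the receptor that guides monocytes out of marrow, at 1.48 and -1.91, and Mpeg1, a pore-forming protein gene of macrophages, at 3.96 and -0.35. Vcam1, an adhesion molecule of macrophages and stroma, was at 2.23 before disease, where all 7 other arrays lay between -3.88 and -2.04. On this probe Vcam1 was 5.04 lower with MDS and on a second one 2.19 lower. Among 18 dendritic cell and MHC class II genes 13 were lower and 1 higher. H2-Ab1 and H2-DMa, which encode an MHC class II chain and a peptide-loading chain, were 3.48 and 3.71 lower, to 1.05 and -0.49, the lowest of the 8 arrays for both. Clec9a, a receptor gene of cross-presenting dendritic cells, was 4.46 higher at -0.06, with 0.74 on the MDS/ML array and -1.70 or less on the others. Siglech, a receptor gene of plasmacytoid dendritic cells, was the brightest of the list, at 8.40 before disease and 9.26 with MDS.

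**Figure D2:**
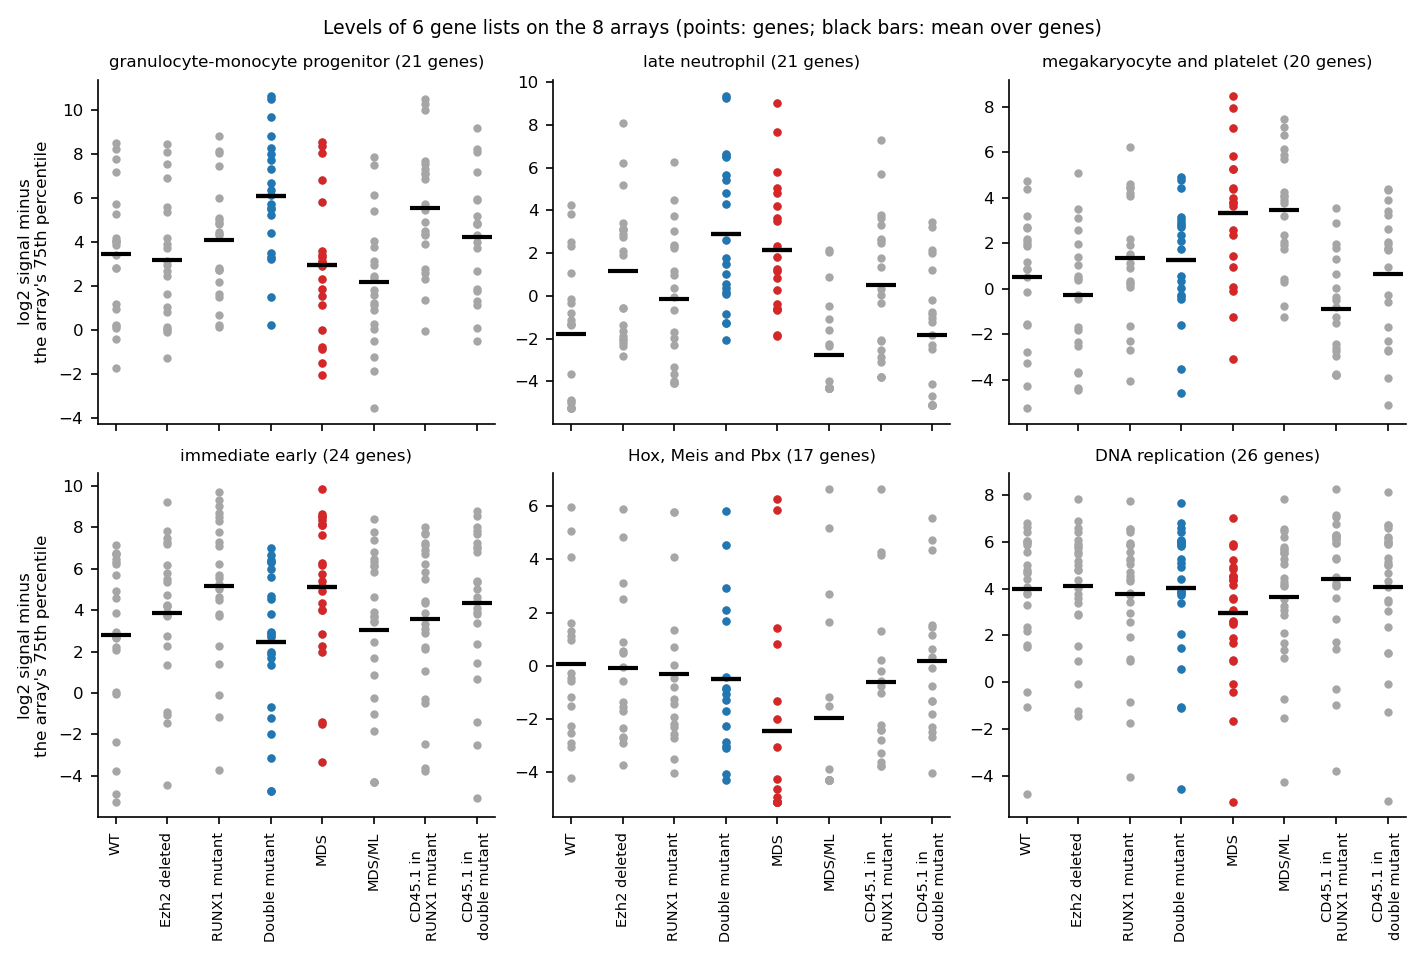
Levels of the genes of 6 lists on all 8 arrays, 1 point for each gene measured in the pair and a black bar for the mean over genes, as log2 signal relative to the array's 75th percentile, with dim values drawn at the lowest level well above background. The mean of granulocyte-monocyte progenitor genes was 6.11 before disease (blue) and 2.94 with MDS (red), that of megakaryocyte and platelet genes 1.26 and 3.35, and that of immediate early genes 2.46 and 5.11.

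Megakaryocyte and platelet genes were higher with MDS: 16 of 20 measured were at least 2-fold higher, 2 were lower, and the median was 2.27. Pf4, the platelet factor 4 gene, was at 4.80 before disease and 8.50 with MDS, 3.70 higher and the highest of the 8 arrays. Treml1, a receptor stored in platelet granules, was at 4.42 and 7.97. Clec1b, the podoplanin receptor of platelets, was at -0.33 and 4.41. Receptor genes of platelet adhesion were higher together: Gp6 for collagen by 4.96, Gp5 by 3.32, Gp1ba by 2.55, Gp9 by 2.40 and Itga2b, which encodes the integrin CD41, by 3.03. Ppbp, a platelet chemokine gene, was 4.22 higher.

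Exceptions within the list were Vwf, which encodes von Willebrand factor, with 2.12 and -0.08, and Clu, the clusterin gene, at 3.01 and 0.94. Above WT, the list had a median of 0.54 before disease and 2.71 with MDS. The MDS/ML array, compared with the same pre-disease array, had 16 of 22 of these genes 2-fold higher and 1 lower (9.83% and 15.2% of all genes) and a median of 2.20. Between both CD45.1 arrays 15 of 19 were 2-fold higher (7.27% of all genes) with a median of 1.51, so this list also varied widely among wild-type cells; its mean level there was -0.90 and 0.65, against 3.35 with MDS. Factors of the megakaryocyte and erythroid branch differed less. Zfpm1, the GATA1 cofactor FOG1, was 1.77 higher, Gfi1b 1.50, Tal1 1.41 and Gata2 1.16. Lmo2, listed with them among stem cell transcription factors, was 1.83 lower. Erythroid genes did not share the direction of platelet genes. Of 23 measured 0 were 2-fold higher (10.7% of all genes) and 5 lower. These 5 are 21.7%, near the 20.5% of all genes, and the median of the list was -0.48. Among the 5 was Klf1, the erythroid master factor, 2.27 lower.

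The promoters of a platelet and a granule gene, from both ends of this comparison, are shown because both lists hold the same short ETS-type motif, GGAAGT, in part of their promoters. ETS factors such as PU.1 and FLI1 bind sites with this core. In the 250 bases before the start, on either strand, it was present in 6 of 14 platelet genes with a RefSeq promoter entry (42.9%; Pf4, Ppbp, Gp5, Gp9, Itga2b and Nrgn) and in 6 of 16 granulocyte-monocyte progenitor genes (37.5%; Mpo, Elane, Prtn3, Ctsg, Ms4a3 and Fcgr2b), against 20.0% of all 27025 promoters. The promoter of Pf4 lies at chr5:90772185-90772434 on the plus strand and that of Elane at chr10:79886062-79886311 on the plus strand (GRCm38.p6, RefSeq), with the motif in capitals.
Pf4: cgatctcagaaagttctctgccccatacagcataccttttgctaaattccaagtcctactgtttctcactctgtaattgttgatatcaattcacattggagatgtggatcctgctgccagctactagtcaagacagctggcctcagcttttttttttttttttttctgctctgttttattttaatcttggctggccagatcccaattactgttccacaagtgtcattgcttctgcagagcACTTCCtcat
Elane: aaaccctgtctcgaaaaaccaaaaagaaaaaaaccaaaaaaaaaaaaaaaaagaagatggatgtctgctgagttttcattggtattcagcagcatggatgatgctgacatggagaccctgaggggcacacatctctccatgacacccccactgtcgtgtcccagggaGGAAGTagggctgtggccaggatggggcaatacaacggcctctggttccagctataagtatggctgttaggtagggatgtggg
Pf4 holds the motif on the reverse strand close to its start and Elane on the forward strand. Over the genes measured, GGAAGT was in 20.6% of promoters of genes 2-fold higher with MDS, 22.0% of those lower and 24.1% of those within 2-fold. The RUNX-type motif TGTGGT was in 12.4% of promoters of genes 2-fold higher with MDS, 12.3% of those lower and 10.9% of those within 2-fold, against 14.2% of all promoters. In the 2 lists it was in 1 of 14 platelet genes (7.14%) and in 3 of 16 granulocyte-monocyte progenitor genes (18.75%).

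Mast cell genes were split. Cpa3, the mast cell carboxypeptidase gene, was at 6.39 before disease and 8.47 with MDS, where WT lay at 1.45. Il1rl1, the IL-33 receptor, was at 3.63 and 5.05, Fcer1a, a chain of the IgE receptor, at 3.39 and 4.50, and Mitf, a mast cell transcription factor, at 1.91 and 3.33. Gzmb, the granzyme B gene, was at -1.14 and 3.38. Against these 6 of 17 genes that were higher, 8 were lower, among them proteases of granules: Mcpt4 and Cma1, both chymase genes, by 6.83 and 4.84, Tpsb2, a tryptase gene, by 4.52, and Prss34, a basophil protease gene, by 4.34. Hdc, the histidine decarboxylase that makes histamine, was 4.27 lower. The list as a whole lay 2.96 above WT before disease and 1.43 with MDS. Eosinophil genes were split too, 2 of 10 being higher (Ear1 and Ear2, near-identical ribonuclease genes that a probe may not tell apart) and 3 lower, among them Epx, the eosinophil peroxidase gene, by 1.22. The shares were 20.0% and 30.0%, against 10.7% and 20.5% of all genes.

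Genes of stem cells went both ways. Of 26 surface and quiescence genes 9 were higher and 8 lower with MDS. Procr, which encodes the stem cell marker EPCR, was at 1.35 before disease and -3.48 with MDS, 28.6-fold lower, and at -3.72 on the MDS/ML array; the 6 other arrays lay at 0.86 or above. Cd34, a sialomucin of progenitors, was at 7.54 and 4.25, and 7.84 or more on WT and the other month 4 arrays. Flt3, a receptor of multipotent and lymphoid-primed progenitors, was at 3.23 and -2.34, 47.8-fold lower, and at 5.71 on WT. Ramp2, part of the adrenomedullin receptor, was 3.23 lower. Higher were Pdzk1ip1, which encodes the membrane protein MAP17, by 3.34, Itga2b, named above, Tek, the angiopoietin receptor, by 2.06, and Adgrg1, the adhesion receptor GPR56, by 1.74.

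Stem cell transcription factors were split as well, 7 of 29 being higher and 8 lower. Hlf, a factor of stem cell identity, was at 2.49 before disease and -3.24 with MDS, 53.2-fold lower, against 0.94 to 4.15 on the 5 other month 4 arrays and -1.09 on MDS/ML. Nkx2-3 was at -0.06 before disease and not well above background with MDS, at least 22.0-fold lower, and Mecom, which encodes the factor EVI1, at least 3.77-fold lower. Meis1, a Hox partner, was 1.29 higher and Sox4 1.60 higher.

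Hox genes, the patterning factors that PRC2 and MLL complexes control and that early progenitors express, were lower. Of 17 measured in a list of Hox, Meis and Pbx genes, 10 were lower and Meis1 alone was higher, and 9 of the 17 differences are bounds. Hoxa7 was at 2.94 before disease and -2.02 with MDS, 31.1-fold lower, with 4.11 on WT and 3.10 to 4.34 on the other 4 month 4 arrays. Hoxa3 was at -0.44 before disease and not well above background with MDS, at least 25.5-fold lower. The same was true of Hoxb5 (at least 19.2-fold), Hoxa5 (at least 14.2-fold) and Hoxb2 (at least 10.7-fold). All 5 of these genes were well above background on each of the 6 month 4 arrays and, Hoxa7 aside, on neither moribund array. Hoxa7 was at -1.18 on the MDS/ML array, which was compared with the same pre-disease array. The median of the list was -1.40 here, -2.33 for MDS against WT, -0.75 for the pre-disease array against WT, and 0.63 between both CD45.1 arrays.

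Lymphoid-primed genes were lower in 10 of 17 and higher in 2. Cd27, a costimulatory receptor, was at 0.44 and -4.12, and Tcf4, a factor of plasmacytoid and B lineage cells, at 2.37 and -0.07. Il7r, the IL-7 receptor, and Ccr9, a thymus homing receptor, were not well above background with MDS, at least 5.38-fold and 6.24-fold lower. Dntt, the terminal transferase of early lymphoid cells, was 1.01 lower. Against WT the median of the list was -1.67 before disease and -2.98 with MDS. Exceptions were Notch1, the receptor that starts T cell development, at 0.43 and 2.67, and Il12a, a cytokine subunit gene, at -1.35 and 1.32. Thy1, a T cell surface protein gene, was 3.75 lower, while Lat, an adaptor shared by T cells, mast cells and platelets, was 3.28 higher.

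**Figure D3:**
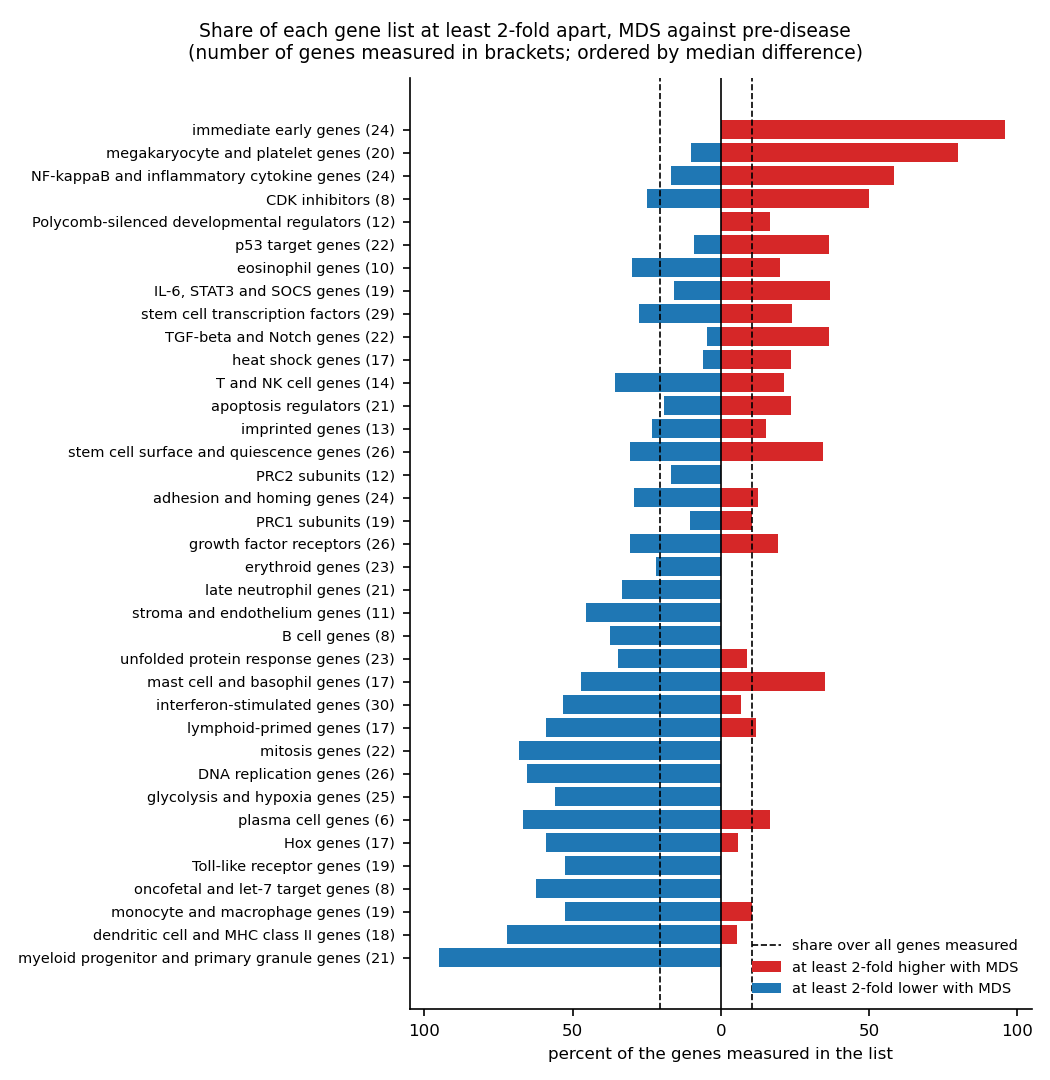
Percent of the genes measured in each of 37 lists that were at least 2-fold higher (red, to the right) or lower (blue, to the left) with MDS than before disease, ordered by the median difference. The dashed lines mark the shares over all genes measured, 10.7% higher and 20.5% lower; immediate early genes reached 95.8% higher and granulocyte-monocyte progenitor genes 95.2% lower.

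Immediate early genes, the first transcripts to follow a stimulus, were higher with MDS in 23 of 24 cases, with a median of 2.60 and none lower. Egr1, a zinc finger factor, was at 4.68 before disease and 8.10 with MDS, Fosb, an AP-1 subunit gene, at 3.83 and 8.48, and Egr2 at -1.98 and 2.84. Jun and Jund, AP-1 partners of FOS, were 2.84 and 2.29 higher, and Nr4a2, an orphan nuclear receptor, 4.31 higher. Atf3, a stress-induced repressor, was at 1.34 and 4.01.

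The level of this list differed between arrays of all kinds. Its mean was 2.46 on the pre-disease array, the lowest of the 8, and 5.11 on the MDS array, with 5.16 on the RUNX1S291fs array and 2.80 on WT; the wild-type CD45.1 arrays were at 3.57 and 4.36, and MDS/ML at 3.04. Between both CD45.1 arrays 10 of 23 were 2-fold higher (7.27% of all genes). MDS against WT gave 23 of 24 (13.6% of all genes) and a median of 2.02. Inducible chaperone genes were higher with MDS than before disease too, Hspb1 by 4.59, Hspa1a by 3.26 and Dnajb1 by 2.30. In the heat shock list 4 of 17 were higher and 1 lower. Hspa1a was at 0.19 with MDS, but at 3.13 on the RUNX1S291fs array and 1.91 and 4.04 on the CD45.1 arrays. The mean of the list was 3.82 before disease and 4.30 with MDS. It was 4.78 on RUNX1S291fs, 4.81 and 4.92 on the CD45.1 arrays, 4.02 on Ezh2 deleted, 3.99 on MDS/ML and 3.61 on WT. Bag3, a co-chaperone gene, was 4.13 lower. Whether stress of the cells during isolation had a part in these values was not tested.

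Genes of NF-kappaB signalling and inflammatory cytokines were higher in 14 of 24 and lower in 4, with a median of 1.39. NF-kappaB is a family of dimers that inhibitors such as NFKBIA hold in the cytoplasm until a stimulus releases them, after which they activate genes of cytokines and of their own inhibitors. The inhibitors were higher: Nfkbia at 4.40 before disease and 7.54 with MDS, Nfkbiz at -0.67 and 2.26, Nfkbie by 1.40, and Tnfaip3, the ubiquitin-editing brake A20, at 3.68 and 7.55, 14.6-fold higher. Among subunits Nfkb2 was 2.04 and Relb 2.22 higher while Nfkb1 was 1.96 lower. Among ligands Cxcl2, a neutrophil chemokine gene, was at -2.15 and 3.16, 39.7-fold higher, Tnf 2.79 higher, Il6 2.38 higher from -2.90, and Ccl2 2.34 higher, while Ccl3 was 3.01 lower. The mean level of the list was 0.12 before disease and 1.24 with MDS. It was higher on the Ezh2-deleted array (1.50) and the RUNX1S291fs array (1.67). It was 0.24 on WT, 0.71 and 0.85 on the CD45.1 arrays and -0.63 on MDS/ML. Against WT the list had a median of 0.77 with MDS and -0.04 before disease. On the MDS/ML array it lay 0.51 below the pre-disease array, with Nfkbia at 4.73 and Cxcl2 at -1.47.

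The kappaB consensus motif, the site that NF-kappaB dimers bind, was found on either strand in the 250 bases before the start of 9 of the 16 list genes with a promoter entry (56.3%; Nfkbia, Nfkbie, Nfkb2, Rel, Tnfaip3, Il6, Cxcl2, Cxcl10 and Csf1), against 3.75% of all promoters. The 3 promoters shown belong to the 2 inhibitors and the chemokine with the largest differences among these, with the motif in capitals. Nfkbia lies at chr12:55492648-55492897 on the minus strand, Tnfaip3 at chr10:19015411-19015660 on the minus strand and Cxcl2 at chr5:90903649-90903898 on the plus strand (GRCm38.p6, RefSeq).
Nfkbia: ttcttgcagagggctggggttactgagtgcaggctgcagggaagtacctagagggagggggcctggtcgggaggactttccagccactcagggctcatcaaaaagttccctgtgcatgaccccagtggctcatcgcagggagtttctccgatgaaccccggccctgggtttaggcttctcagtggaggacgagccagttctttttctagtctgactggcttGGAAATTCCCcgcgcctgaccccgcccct
Tnfaip3: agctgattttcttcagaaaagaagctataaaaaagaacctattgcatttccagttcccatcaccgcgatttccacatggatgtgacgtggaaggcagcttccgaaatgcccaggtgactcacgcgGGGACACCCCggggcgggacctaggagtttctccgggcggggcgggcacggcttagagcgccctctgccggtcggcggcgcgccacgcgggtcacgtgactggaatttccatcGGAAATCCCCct
Cxcl2: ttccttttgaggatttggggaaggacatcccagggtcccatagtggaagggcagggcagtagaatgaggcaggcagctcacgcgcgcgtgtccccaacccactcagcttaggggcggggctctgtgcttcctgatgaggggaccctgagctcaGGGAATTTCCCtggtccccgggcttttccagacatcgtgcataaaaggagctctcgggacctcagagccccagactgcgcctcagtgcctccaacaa
Nfkbia holds 1 match close to its start, Tnfaip3 holds 1 there and another farther upstream, and in Cxcl2 overlapping matches fall within the single stretch in capitals. Of the motif holders, Csf1, a macrophage growth factor gene, was 1.41 lower, so the motif did not go with 1 direction. Over all genes it was in 6.30% of promoters of genes 2-fold higher, 4.65% of those lower and 3.91% of those within 2-fold.

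Receptors upstream of this pathway went the other way. Of 19 Toll-like receptor genes 10 were lower and 0 higher, with a median of -1.44. Tlr4, the receptor of bacterial lipopolysaccharide, was at 0.84 before disease, -1.15 on WT and not well above background with MDS, at least 61.8-fold lower. Its co-receptors Cd14 and Ly96 were 3.69 and 1.52 lower, Tlr1 at least 26.7-fold lower, and Irak3 and Traf6, a brake and a ubiquitin ligase of the pathway, 3.36 and 1.44 lower. Tifab, an inhibitor of TRAF6 signalling, was at -1.45 and not well above background with MDS. Of 19 genes of IL-6, STAT3 and SOCS signalling 7 were higher and 3 lower. The lower ones were the receptor chains Il6ra and Il6st, by 3.89 and 1.39, and the feedback inhibitor Socs1, by 1.45. Socs3, another such inhibitor, was 1.42 higher, and Pim1 and Pim2, kinases of cell survival, 2.65 and 3.21 higher.

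Interferon-stimulated genes, which cells switch on against viruses, were lower in 16 of 30 and higher in 2, with a median of -1.08. Oasl2 was at 1.68 before disease and -1.34 with MDS, Oasl1 at 1.76 and -0.74, and Rtp4, a receptor chaperone gene, at 1.31 and -0.93. Ifi44 was at -1.28 and not well above background with MDS, at least 14.2-fold lower. Bst2, the gene of the virion tether tetherin, was 2.01 lower, and Ifih1, the RNA sensor MDA5, 2.07 lower. Oasl2, Oasl1, Rtp4 and Ifi44 were higher on WT than before disease (2.72, 3.77, 4.35 and 1.28), and the list was at a median of -0.91 from WT before disease and -1.88 with MDS. The 2 genes that were higher were Usp18, a negative regulator of the interferon receptor, at -0.55 and 3.89, and Rsad2, the antiviral enzyme viperin, at 0.22 and 2.50; both were also higher on the MDS/ML array, at 2.38 and 2.19, where the list as a whole was at 0.24 from the pre-disease array.

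The interferon-stimulated response element, here GAAA followed by any 2 bases and GAAA again, is bound by STAT and IRF factors. It was in 12 of 22 list genes with a promoter entry (54.5%), against 3.04% of all promoters, on either strand. The promoters of Gbp3, an interferon-induced GTPase gene, and Rsad2 are shown since both hold the element and lay at opposite ends: Gbp3 was at 3.38 and 0.49, 2.88 lower, and Rsad2 2.28 higher. Gbp3 lies at chr3:142559794-142560043 on the plus strand and Rsad2 at chr12:26456453-26456702 on the minus strand (GRCm38.p6, RefSeq), with the element in capitals.
Gbp3: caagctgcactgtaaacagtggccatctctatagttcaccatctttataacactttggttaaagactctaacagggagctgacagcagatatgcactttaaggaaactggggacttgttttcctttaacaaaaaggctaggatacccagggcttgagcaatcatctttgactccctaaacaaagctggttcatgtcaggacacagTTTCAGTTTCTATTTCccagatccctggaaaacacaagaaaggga
Rsad2: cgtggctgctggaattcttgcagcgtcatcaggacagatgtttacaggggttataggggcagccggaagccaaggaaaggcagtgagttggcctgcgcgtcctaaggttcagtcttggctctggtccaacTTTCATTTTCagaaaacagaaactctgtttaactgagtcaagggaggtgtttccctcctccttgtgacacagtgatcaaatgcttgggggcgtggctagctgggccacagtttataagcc
In both promoters the element is on the reverse strand, so it reads TTTC at either end, and Gbp3 has overlapping copies. Over all genes the element was in 3.02% of promoters of genes 2-fold higher, 3.49% of those lower and 2.64% of those within 2-fold. These 2 promoters were chosen for their opposite directions, and a part of the element in the differences was not tested.

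Cell cycle genes were lower with MDS. DNA replication genes were lower in 17 of 26 and higher in 0, with a median of -1.25, and mitosis genes in 15 of 22 and 0, with a median of -1.22. Rrm2, the ribonucleotide reductase subunit made in S phase, was at 5.84 and 3.57, Mcm5, part of the replicative helicase, at 5.99 and 4.51, and E2f1, a factor that drives S phase entry, at 3.40 and 1.90. Plk1, a mitotic kinase gene, was at 5.85 and 3.95, Bub1b, of the spindle checkpoint, at 2.15 and -0.28, and Mki67, the proliferation marker, at 6.60 and 5.40. The counts depend on the scaling: with the percentile taken over probes detected on all 8 arrays 10 replication and 8 mitosis genes were 2-fold lower, with medians of -0.95 and -0.92.

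The references for both lists differ. Replication genes lay 1.14 below WT with MDS and 0.03 above it before disease, and their mean level with MDS, 2.94, was the lowest of the 8 arrays (3.65 to 4.41 on the others). Mitosis genes were 0.94 above WT before disease and 0.14 below it with MDS. Their mean level was 3.63 before disease, the highest of the 8 arrays, and 2.42 with MDS. It was 2.55 on RUNX1S291fs, 2.77 on WT, 3.01 on Ezh2 deleted, 3.44 and 3.25 on the CD45.1 arrays and 1.97 on MDS/ML. Between both CD45.1 arrays 1 of 25 replication and 0 of 22 mitosis genes were 2-fold lower (9.39% of all genes), so these lists varied little between those 2 arrays. The cell cycle homology region motif TTTGAA, through which late cell cycle genes are repressed in resting cells, was in 7 of 18 mitosis gene promoters (38.9%), among them those of Cdk1, Cdc20 and Ube2c, against 16.3% of all promoters.

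Inhibitors of cyclin-dependent kinases and p53 targets were higher in part. Cdkn1a, which encodes the cell cycle inhibitor p21 and is a p53 target, was at 1.68 before disease and 5.18 with MDS, 11.3-fold higher, with 1.69 on WT, 4.35 on Ezh2 deleted, 5.30 on RUNX1S291fs, 2.79 on MDS/ML and 2.59 and 3.61 on the CD45.1 arrays. The MDS value was thus matched by the RUNX1S291fs array. Cdkn2a, the Polycomb-silenced locus of p16 and ARF, was at -0.92 and 1.92, 7.19-fold higher (another probe by 1.53 on the log2 scale), and was well above background on all 4 arrays with deleted Ezh2 and on 1 CD45.1 array. Its neighbour Cdkn2b, the p15 gene, was not well above background before disease and at -2.15 with MDS, at least 5.64-fold higher. Cdkn2d was 1.38 higher, whereas Cdkn2c, the p18 gene, was 1.57 lower.

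Of 22 p53 target genes 8 were higher and 2 lower. Perp, a membrane protein gene of cell adhesion and apoptosis, was at 0.43 and 5.48, 33.2-fold higher, and the other 7 arrays lay between -0.58 and 1.53. Bbc3, the gene of the death inducer PUMA, was 3.61 higher, Phlda3, an AKT inhibitor, 2.89 and Mdm2, the ligase that degrades p53, 1.71. Bbc3 was at 1.77 before disease and 5.39 with MDS, with 4.59 on Ezh2 deleted and 4.61 on RUNX1S291fs. Phlda3 was at -0.95 and 1.94, with 2.16 on Ezh2 deleted and 2.27 on MDS/ML. For both genes the pre-disease array was the lowest of the 8. Gadd45a, a DNA damage response gene, was 1.74 lower. Survival genes were higher alongside, Bcl2 by 2.16, Mcl1 by 1.49 and Bcl2l1, which encodes BCL-XL, by 1.11, while the death effectors Bak1 and Bid were 1.68 and 1.56 lower, so apoptosis regulators as a list had 5 of 21 higher and 4 lower.

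**Figure D4:**
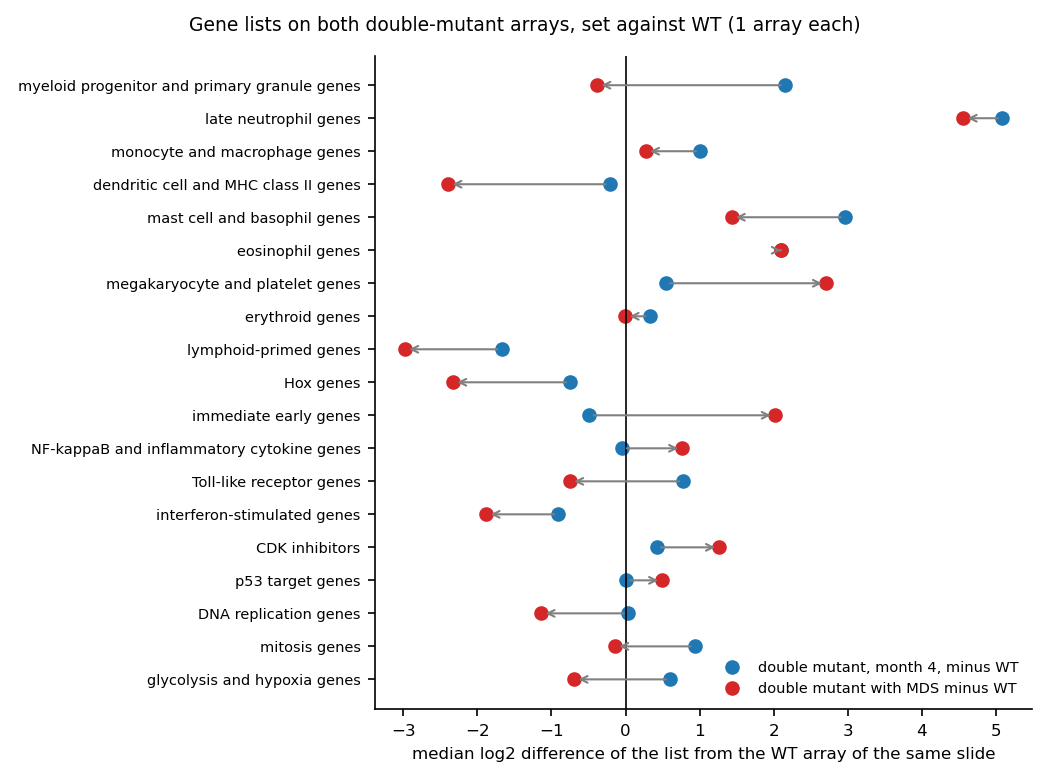
Median log2 difference from the WT array of the same slide for 19 gene lists, before disease (blue) and with MDS (red), joined by arrows from the first to the second. Granulocyte-monocyte progenitor genes went from 2.16 to -0.38 and late neutrophil genes from 5.09 to 4.56, megakaryocyte and platelet genes from 0.54 to 2.71 and Hox genes from -0.75 to -2.33.

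Glycolysis and hypoxia genes were lower in 14 of 25 and higher in 0, with a median of -1.26 (11 lower under the percentile over probes detected on all 8 arrays). Enzymes along the whole pathway were among them: Gpi1 was 1.83 lower, Tpi1 1.92, Gapdh 1.91, Pgam1 2.94, Eno1 1.89 and Pkm 1.91. Since Gapdh is often used as a constant reference, its levels are given in full: 8.74 on WT, 8.83 on Ezh2 deleted, 9.19 on RUNX1S291fs, 9.74 before disease, 7.83 with MDS, 8.43 on MDS/ML and 9.60 and 9.08 on the CD45.1 arrays. The pre-disease array was the highest and the MDS array the lowest. Pdk1, which diverts pyruvate from mitochondria, was 2.14 lower and Vegfa, a hypoxia target, 2.38 lower. The largest lower difference of all genes measured on both arrays belonged to Fbp1, a gluconeogenic enzyme gene, at 5.52 before disease and -2.98 with MDS, 363-fold lower. Fbp1 was at -3.58 on the MDS/ML array and between 2.49 and 3.24 on the other 5 month 4 arrays. Ldhb, a lactate dehydrogenase subunit gene, was at 5.18 and -1.16.

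Protein folding and amino acid stress genes were lower in 8 of 23 and higher in 2. Asns, the asparagine synthetase gene, was at 4.68 and 1.36, and Calr and Pdia6, of the endoplasmic reticulum, 1.50 and 1.36 lower, while Ddit3, the stress factor CHOP, was 2.45 higher. Of 22 genes of TGF-beta, Notch and ID proteins 8 were higher and 1 lower, with Id3 at -2.14 and 1.90, Id1 at 2.22 and 4.55, and Hes1, a Notch target, at -1.17 and 2.48. Among the scalings the median of this list lay between -0.08 and 0.51 and 1 to 5 genes were lower, so the list has no direction. Its mean was -0.19 before disease and 0.51 with MDS. It was 0.84 on Ezh2 deleted, 0.82 on RUNX1S291fs, -0.18 and 0.68 on the CD45.1 arrays, -0.10 on WT and -0.41 on MDS/ML. Subunits of the Polycomb complexes differed little. Of 12 PRC2 genes 0 were higher and 2 lower, Rbbp7 by 1.18 and Phf19, an accessory reader subunit, by 2.50. Of 19 PRC1 genes 2 were higher and 2 lower (10.5% each, against 10.7% and 20.5% of all genes), the largest being Cbx6 at 3.35 and 0.87. Ezh1, the second methyltransferase of PRC2, was 0.19 higher.

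Of 38 developmental regulators that PRC2 is known to silence only 12 were measured, and 3 of the 12 differences are bounds. A positive difference was seen in 9 and a negative one in 3, with a median of 0.51 against -0.23 over all genes. At least 2-fold higher were 2 (10.7% of all genes), Otx2 and Dlx5, and 0 were 2-fold lower (20.5% of all genes). Otx2 and Dlx5 were at least 2.47-fold and 2.41-fold higher. Neither was well above background before disease, and they were at -3.41 and -3.17 with MDS. Of 8 oncofetal genes 5 were lower, led by Igf2bp3, whose product binds RNA in fetal tissue, which was at -0.08 before disease and not well above background with MDS. Of 13 imprinted genes 2 were higher (15.4%) and 3 lower (23.1%), near the 10.7% and 20.5% of all genes. Mest, a growth-related hydrolase gene, was well above background on the moribund arrays only (-2.31 with MDS and 3.25 with MDS/ML). Dlk1, a Notch ligand homologue, was 2.53 lower. Stroma and endothelium genes were lower in 5 of 11 (45.5%), B cell genes in 3 of 8 (37.5%) and plasma cell genes in 4 of 6 (66.7%). Adhesion genes gave 3 higher and 7 lower of 24 (12.5% and 29.2%), not far from the 10.7% and 20.5% of all genes. Growth factor receptors gave 5 higher and 8 lower of 26 (19.2% and 30.8%), with Ifngr1, the interferon gamma receptor, 3.05 lower.

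Among single genes the highest difference was that of Insm1, a zinc finger factor of neuroendocrine cells, at -4.55 before disease and 5.45 with MDS, 10.01 on the log2 scale. The other 6 arrays lay between -3.07 and -1.09, so the MDS array stood 6.54 above the nearest. Gzmc, a granzyme gene, was at -4.31 and 2.28, Ackr1, the atypical chemokine receptor DARC, at -0.81 and 5.13, and Penk, the proenkephalin gene, at -1.49 and 3.32. Phlda1 was at 0.66 and 6.46, Tnfrsf25, the death receptor DR3, at -4.17 and 1.67, Slco2b1, an organic anion transporter gene, at -3.32 and 2.39, and Plk3, a stress-responsive kinase gene, at 0.52 and 5.70. Phlda1 and Plk3 were also high on the RUNX1S291fs array (4.81 and 4.80). Tnni1, a troponin gene of slow muscle, was not well above background before disease and at 3.15 with MDS, at least 234-fold higher. Kcns3, a potassium channel subunit gene, was well above background on the MDS array alone.

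Several of the lowest differences belonged to genes that were high before disease. B4galt6, a glycosyltransferase gene, was at 4.11 before disease and -3.31 with MDS, with 0.14 on WT. Prom1, which encodes the surface protein CD133, was at 4.13 and -2.88, with -2.21 on WT, and App, the amyloid precursor protein gene, at 4.57 and -1.76, with 2.12 on WT. The difference of Prom1 was -7.00 on this probe and -3.02 on a second one. Nrp2, a semaphorin and VEGF co-receptor gene, was at 2.91 before disease and not well above background with MDS, at least 228-fold lower, though at -2.98 on WT. The log2 difference of Nrp2 was -7.83 on this probe and -5.37 on a second one. Hfe, an iron homeostasis gene, was at 2.55 and -3.76, with 0.70 on WT.

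A different set of genes was at a like level on 7 arrays and far lower on the MDS array alone. Rassf2, a RAS-association domain gene, lay between 3.33 and 4.06 on the 7 other arrays and at -2.10 with MDS, 5.42 below the nearest of them. As3mt, the arsenite methyltransferase gene, lay between 1.85 and 2.59 and at -3.99. Tmem230, a membrane trafficking gene, lay between 2.45 and 2.97 and at -2.40, and Cyb561, a cytochrome b gene, between 1.46 and 2.49 and at -3.48. Armcx1 and Armcx2, neighbouring members of an armadillo-repeat family on the X chromosome, were at least 44.5-fold and, on the second, 35.0-fold below the pre-disease array. Mansc1 was not well above background with MDS and was on each of the other 7 arrays. These genes were chosen from the 10 farthest below all other arrays, so their position is a description; in all, the MDS array was at least 2-fold below the 7 others at 519 of 11420 genes and at least 2-fold above them at 299 of 13288.

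**Figure D5:**
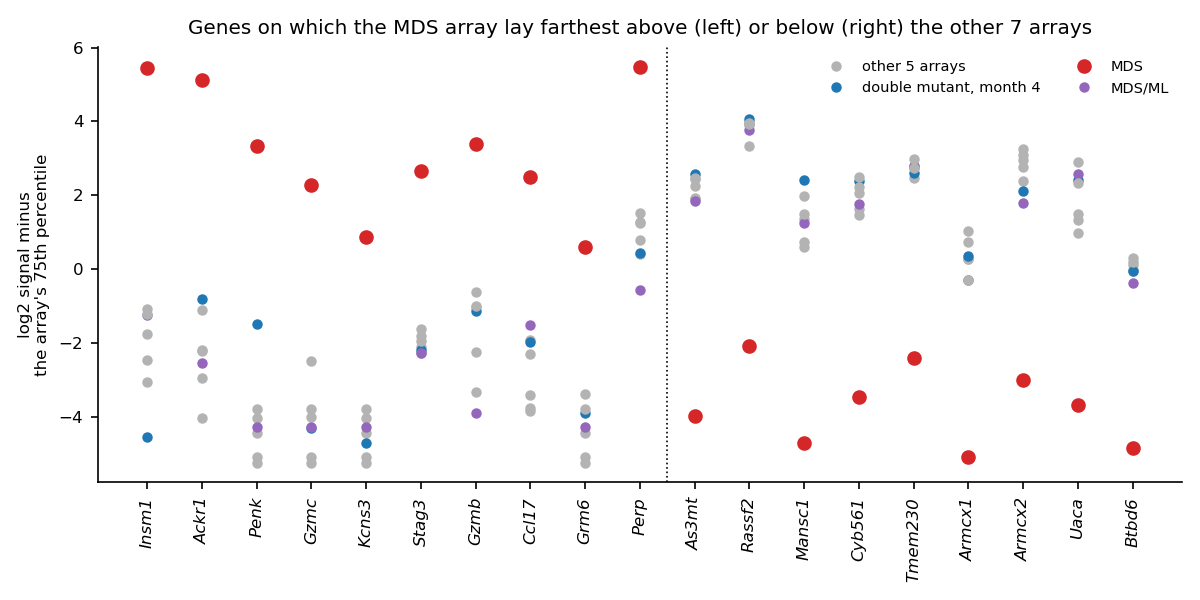
Levels on all 8 arrays of the 10 genes by which the MDS array (red) lay farthest above the other 7 arrays and 9 of the 10 by which it lay farthest below, as log2 signal relative to the array's 75th percentile, with dim values drawn at the lowest level well above background. Insm1 stood 6.54 above and As3mt 5.84 below the nearest other array, and the genes on the right lay close together on the 7 arrays other than MDS.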

How the data were processed

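The study used 8 Agilent arrays of 1 colour, 1 for each group, with 20 ng of total RNA of sorted cells labelled with Cy3, per the labels' protocols. Per the file headers, the deposited signal is a fluorescence intensity made by Agilent Feature Extraction 10.7.1.1 (design 028005), corrected for background within each array and not scaled between arrays. The median spot and background columns as deposited are raw pixel intensity. The series table deposited by the authors holds linear signal, the same values divided by 1 factor per array, with no centring on genes (column medians 0.0526 to 0.0671). Its direction does not arise, as arrays have 1 colour.

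From the processed signal of non-control probes, log2 values minus the 75th percentile of the array were computed (Python 3.11.15, pandas 2.3.3), averaging repeat spots. RefSeq names of GRCm38.p6 were found for 27235 of 55681 probes (20660 genes), and 28446 had none. For the 5476 genes with several probes the brightest on average was used. Where a value was dim, the lowest detected signal of its array replaced it if higher, giving a bound. With 1 array per group no test was run, and the number of arrays limits the precision. Called means a difference of at least 2-fold. Genes named were the targets, the 15 highest and 15 lowest differences, the 5 largest bounds each way, the 10 genes farthest above or below the other 7 arrays, and list members past 2-fold, or up to 3 of the largest where fewer were. A gene may stand in several lists, and a few named by this rule are not reported here. The 39 lists, the motifs and the genes compared were chosen with earlier results of these data known. Promoters are the 250 bases before the first RefSeq start of 27025 genes. The steps were tested on simulated data.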

Additional observations from a re-analysis of the deposited data

Results flagged for a closer look

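Among the 405 named genes, 20 differed from the pre-disease array by at least 2-fold in opposite directions on the MDS and MDS/ML arrays, and the difference was not tested. Both comparisons share the pre-disease array, and the MDS/ML array lies on another slide and differs from both others in sex-linked genes. In each pair of differences below MDS comes first.

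The pair was 5.93 and -1.75 for Ackr1, an atypical chemokine receptor gene, 4.52 and -2.77 for Gzmb, the granzyme B gene, and 5.05 and -1.01 for Perp, a p53 target. Penk, the proenkephalin gene, gave 4.82 and -2.80, and Id3, an inhibitor of helix-loop-helix factors, 4.04 and -1.33. Mast cell genes gave 1.11 and -6.21 (Fcer1a), 1.42 and -2.39 (Mitf) and 1.42 and -3.20 (Il1rl1), and the eosinophil genes Ear1 and Ear2, which are close paralogs, 1.49 and -5.06, and 1.31 and -4.85. The immediate early genes Atf3 and Nr4a3 gave 2.66 and -2.35, and 1.62 and -1.15. Inflammatory genes gave 2.79 and -2.33 (Tnf), 2.38 and -1.39 (Il6) and 2.15 and -1.32 (Ptgs2). Xist gave 1.66 and -5.39.

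In 4 genes the MDS array was the lower one. Jchain, of antibody-secreting cells, gave -3.06 and 3.67, Ly6d, a marker of lymphoid progenitors, -2.25 and 1.56, Rtp4, an interferon-stimulated gene, -2.24 and 1.24, and Itgax, which encodes CD11c, -1.05 and 1.45. Penk, Il6, Nr4a3 and Xist were not well above background on the MDS/ML array, so their second values are bounds.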

How the results depend on the processing

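Precision is limited by 1 array per group and by dim signal: 1447 of the 14067 differences are bounds. The share of 2-fold differences that were higher with MDS turned from 34.2% to 52.0% with the percentile over probes well above background on all 8 arrays, and moved to 20.8% with median centring and to 47.7% with centring on the median difference, an alternative chosen after seeing the data. These settings shifted the median of all genes by 0.30, -0.29 and 0.23. With normexp background correction 906 genes were at least 2-fold higher. The other counts kept within 1.5 times of the main ones. Of 405 named genes, 15 to 59 fell short of their 2-fold difference under each of those settings, quantile normalization and the mean of all probes of a gene, with 59 under normexp. With the mean of all probes of a gene, Tcf7 turned to 0.32 and Pole to 0.14. The medians of stem cell surface, stem cell factor, T and NK cell, PRC2, imprinted, heat shock, adhesion, TGF-beta and apoptosis genes took either sign among the scalings, so no direction is given for these lists. No paired analysis was possible because each group has 1 array and the result comes from no test.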
